A study of Mus musculus with 5 samples.

Results

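The MHC class II presentation genes were 10 genes of the deposited count table, chosen by symbol: the chain genes H2-Aa, H2-Ab1 and H2-Eb1, the invariant chain gene Cd74, the peptide-exchange genes H2-DMa, H2-DMb1 and H2-DMb2, the genes H2-Oa and H2-Ob of their inhibitor, and the transactivator gene Ciita. All 10 were found among 54113 named entries, and all 10 passed the filter on low counts that left 16133 genes. RNA came from colorectal cancer (CRC) tumours of C57BL/6 mice, for which the methods describe MC-38, a mouse colon carcinoma cell line, placed under the skin. In one group, 3 tumours came from mice housed at 30 °C, and in the other, 2 came from mice housed at 4 °C, both for 2 weeks. The mice were young, of both sexes in the methods and kept at a mild temperature before the cold or warm housing. The labels give no further allele or agent, and the study calls the replicates biological samples. The comparison asks whether the level of these transcripts in the tumour tissue differed between cold and thermoneutral housing.

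MHC class II molecules are pairs of an alpha and a beta chain that show peptides from endosomes to CD4+ T cells. The invariant chain guards the new pair and guides it to the endosome. There H2-DM takes out the last piece of the invariant chain and loads peptide, and H2-DO holds H2-DM back. B cells, dendritic cells and macrophages carry class II at rest, whereas most other cells need interferon-gamma, and in both cases CIITA is the factor that turns the genes on. CIITA binds no DNA itself but sits on a complex of RFX, CREB and NF-Y proteins, which read the X and Y boxes before the start of the genes.

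In the C57BL/6 genome (GRCm38), 8 of the 10 genes stood in the class II region of chromosome 17. With 2 further class II entries, H2-Eb2 and H2-Ea-ps, they lay between 34092340 and 34344645. RefSeq promoter windows on GRCm38.p6 were at hand for 7 of the 10 genes, in 8 windows of 250 bases before to 50 bases after a start. No entry was at hand for H2-Ab1, Cd74 and Ciita. The stretches around the Y box are shown because CIITA acts through them, and that of H2-Eb2 for comparison, a neighbour whose levels departed from those of the chain genes. They are printed 5′ to 3′ on the strand of the gene. Capitals mark GATTGG (the Y box read on the gene's strand), AGNAAC (the core of the X box) where it starts 30 to 33 bases before GATTGG, and TGACGTCA (a CREB site, in H2-Aa).
H2-Aa, chr17:34287847-34287917, minus strand: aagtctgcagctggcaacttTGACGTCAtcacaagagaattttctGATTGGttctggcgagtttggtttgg
H2-Eb1, chr17:34305762-34305832, plus strand: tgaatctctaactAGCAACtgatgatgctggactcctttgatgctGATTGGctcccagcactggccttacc
H2-Oa, chr17:34092290-34092360, plus strand: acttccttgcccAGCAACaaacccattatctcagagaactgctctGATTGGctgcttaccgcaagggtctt
H2-Ob, chr17:34238802-34238872, plus strand: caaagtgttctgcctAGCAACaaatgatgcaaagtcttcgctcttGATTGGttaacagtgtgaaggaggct
H2-DMb1, chr17:34153084-34153154, plus strand: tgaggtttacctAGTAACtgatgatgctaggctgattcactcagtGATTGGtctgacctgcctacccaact
H2-DMb2, chr17:34145113-34145183, plus strand: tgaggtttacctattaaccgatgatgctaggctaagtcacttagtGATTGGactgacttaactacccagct
H2-Eb2, chr17:34325529-34325599, plus strand: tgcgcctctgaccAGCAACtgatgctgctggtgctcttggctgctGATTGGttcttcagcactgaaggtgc

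All 7 members with a window held GATTGG on one strand or the other, a motif found in 16.1% of the 32851 RefSeq windows of the same length. For H2-DMa it lay in 1 of 2 windows, further from the start than in the other genes, and that window is not shown. The pair of AGNAAC and GATTGG at 30 to 33 bases was found in 4 members (H2-Eb1, H2-Oa, H2-Ob and H2-DMb1) and in H2-Eb2, and in 0.0761% of all windows. The distance from start to start was 32 bases in H2-Eb1 and H2-Eb2, 33 in H2-Oa and H2-DMb1, and 30 in H2-Ob. Both strands were searched, and the spacing was set after these sequences had been seen. AGNAAC by itself was common (48.1% of windows) and TGACGTCA was rare (1.79%). The stretches of H2-DMb1 and H2-DMb2, genes of neighbouring copies of the same beta chain, were identical at 61 of 71 aligned bases (85.9%), and AGNAAC was found at the set distance only in the first of them.

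Named genes took between 16191708 and 20320525 counts per library. Libraries stood apart in what else they held: the summed pancreatic acinar markers (35 genes) made up 31.1% of the counts of 30 °C replicate 2, 3009 counts per 1000000 (CPM) in 4 °C replicate 2 and between 21.6 and 90.0 CPM in the other 3. Epithelial markers (11 genes), listed for a colon carcinoma, summed to between 19.4 and 133 CPM, with 7 to 10 of the 11 above 3 counts. Cdx2 was at 0 in 2 libraries, whereas Krt8 stood at 3.17 to 59.7 CPM and Epcam at 7.91 to 11.4 CPM. Whether MC-38 cells carry all of these markers was not checked. Markers of B cells (10 genes) summed to between 1380 and 4108 CPM, and the epithelial sum lay below the B cell sum in each library. Splenic stroma markers (7 genes) summed to 271, 134 and 238 CPM at 30 °C and to 308 and 323 CPM at 4 °C. The groups did not overlap in this sum. They did overlap in its member Spic, with 136, 52.4 and 83.5 CPM at 30 °C and 73.5 and 99.2 CPM at 4 °C. Spic is a gene of red pulp macrophages of the spleen, not of stroma. The other members were higher in both cold libraries than in any at 30 °C. The largest of these was Cxcl13, with 82.3, 51.2 and 93.5 CPM at 30 °C and 148 and 140 CPM at 4 °C. Erythroblast markers (9 genes) summed to 29027, 30931 and 15704 CPM at 30 °C and to 35724 and 42163 CPM at 4 °C, again without overlap, whereas after TMM scaling for composition the highest warm library (41924) exceeded both cold ones. The haemoglobin genes made up most of that sum, and other members such as Slc4a1 were lower at 4 °C (1243 and 1074 CPM) than at 30 °C (1418 to 2079 CPM). The listed epithelial transcripts were thus scarce and those of spleen, blood and pancreas were present. The label of tumour tissue was not borne out by these markers, and the word tumour here follows the label only. The part of these other tissues in the class II levels was not tested.

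The chain genes and Cd74 were abundant in all 5 libraries, with ranks from 5 to 120 among all genes, whereas H2-Oa ranked as low as 5220. Summed over the 10 genes, they reached 6389, 5046 and 12428 CPM at 30 °C and 13658 and 16160 CPM at 4 °C. This is 0.639%, 0.505% and 1.24% of all counts at 30 °C and 1.37% and 1.62% at 4 °C. Replicates 1 and 2 at 30 °C were low, replicate 3 at 30 °C stood close to the cold group, and the groups did not overlap. With the acinar genes left out of the totals, the sum in 30 °C replicate 2 was 7328 CPM in place of 5046, still below 30 °C replicate 3 and the cold group. In bulk tissue, fewer cells of a type and less RNA per cell cannot be told apart.

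**Figure D1:**
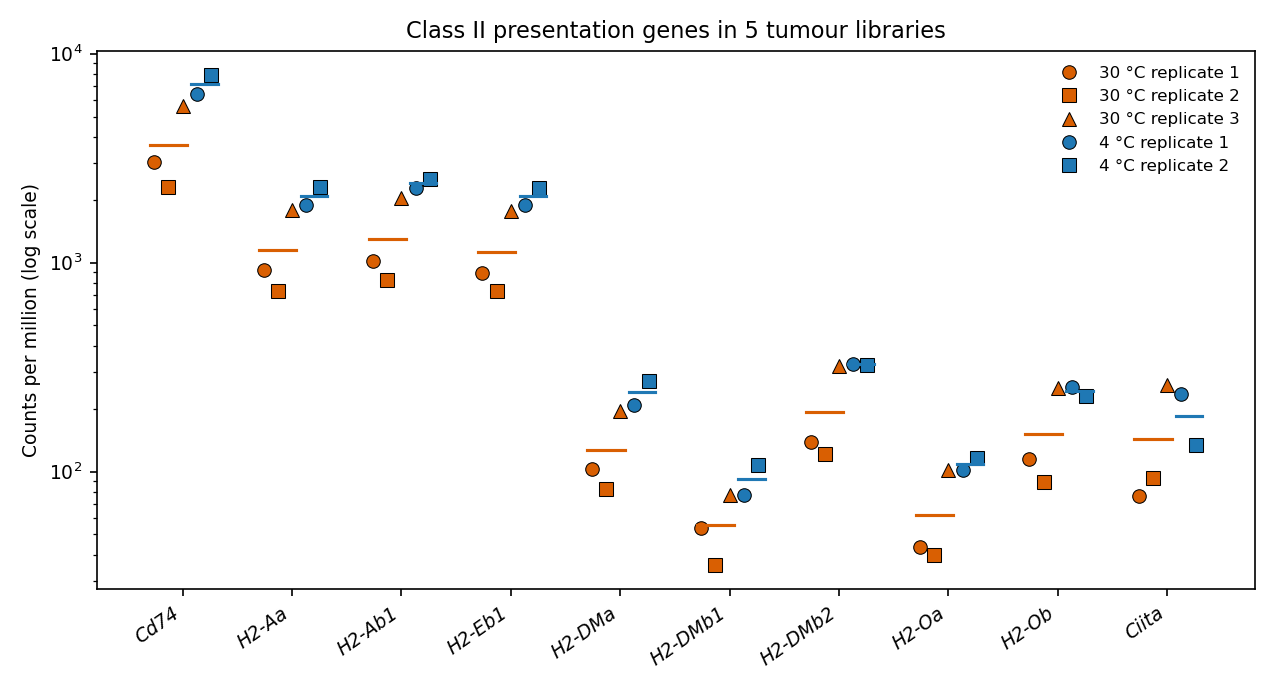
Counts per 1000000 (log axis) of the 10 class II presentation genes in each tumour library; orange symbols are the 3 tumours at 30 °C, blue symbols the 2 at 4 °C, and horizontal lines the group means. For Cd74 the tumours at 4 °C (6385 and 7888 CPM) stand above all 3 at 30 °C (2295 to 5636 CPM), and for Ciita the groups overlap.

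The chain genes came first. H2-Aa, which encodes the alpha chain of I-A, stood at 919, 731 and 1793 CPM in the 3 tumours at 30 °C and at 1889 and 2298 CPM in the 2 tumours at 4 °C. H2-Ab1, which encodes its beta chain, stood at 1017, 825 and 2036 CPM at 30 °C and at 2285 and 2527 CPM at 4 °C. Both cold tumours lay above the 3 warm ones in either gene, but the third warm tumour came within a small step of the lower cold one. In edgeR the log2 fold change was 0.79 ± 0.30 (SE) for H2-Aa and 0.82 ± 0.30 (SE) for H2-Ab1, both with an adjusted p of 0.71.
H2-Eb1 encodes the beta chain of I-E. Its levels were 896, 733 and 1761 CPM at 30 °C and 1895 and 2266 CPM at 4 °C, close to those of H2-Aa. In edgeR its log2 fold change was 0.81 ± 0.30 (SE), at an adjusted p of 0.71.

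The alpha chain of I-E is a known gap of this strain: C57BL/6 mice make none, because the gene (H2-Ea-ps, chromosome 17 from 34341959 to 34344645) has lost its promoter region. The table listed H2-Ea-ps with 3 counts in 30 °C replicate 3 and 0 counts in the other 4 libraries, at or under the floor of 3 counts (0.148 to 0.185 CPM). The partner gene H2-Eb1 had at least 12120 counts in each of them. H2-Eb1 transcripts stood between 0.83 and 0.90 per H2-Ab1 transcript count in the 5 libraries, so this beta chain gene without a partner had nearly the counts of H2-Ab1.

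Cd74 (chromosome 18 from 60803848 to 60812652) was the highest member. It had 3028, 2295 and 5636 CPM at 30 °C and 6385 and 7888 CPM at 4 °C, and its rank among all genes of a library lay between 5 and 39. The group means were 3653 ± 1756 CPM (SD, n = 3) and 7136 ± 1063 CPM (SD, n = 2), and again the third warm tumour was nearest to the cold ones. The means lay further apart than either SD. At 0.90 ± 0.27 (SE) its log2 fold change was the highest among the 10 genes in edgeR, with an adjusted p of 0.69 and an unadjusted p of 0.0158.

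Peptide exchange was read from the 3 H2-DM genes. H2-DMa, the alpha chain, stood at 103, 82.6 and 194 CPM at 30 °C and at 207 and 271 CPM at 4 °C. The beta chain is made from a pair of neighbouring copies. H2-DMb1 stood at 53.6, 35.8 and 77.0 CPM at 30 °C and at 77.0 and 107 CPM at 4 °C, so the lower cold tumour and the highest warm one were level. H2-DMb2 was more abundant, with 138, 121 and 318 CPM at 30 °C and 328 and 324 CPM at 4 °C. In edgeR the log2 fold changes were 0.84 ± 0.29 (SE) for H2-DMa, 0.66 ± 0.25 for H2-DMb1 and 0.69 ± 0.33 for H2-DMb2, with adjusted p of 0.70, 0.71 and 0.76.
H2-DMb1 and H2-DMb2 share sequence: of the distinct stretches of 50 bases in their transcripts (GENCODE M21), 22.7% of those of H2-DMb1 and 24.8% of those of H2-DMb2 occurred in another gene's transcripts as well. How the authors treated reads that match both is not given in the sources used here, so their split is uncertain. H2-DMb2 had 2.57 to 4.26 times the counts of H2-DMb1, with the lowest ratio in 30 °C replicate 1 and the highest in 4 °C replicate 1. On 10.4% of its exon bases H2-DMa overlaps Brd2, a gene of the opposite strand at 185 to 345 CPM, and the strand setting of the counting is not given.

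The inhibitor H2-DO is formed by the products of H2-Oa and H2-Ob, which are typical of B cells. H2-Oa stood at 43.3, 39.7 and 102 CPM at 30 °C and at 101 and 116 CPM at 4 °C. H2-Ob stood at 115, 88.8 and 250 CPM at 30 °C and at 255 and 229 CPM at 4 °C. In both genes the third warm tumour lay between the cold ones, so the groups overlapped. In edgeR the log2 fold changes were 0.74 ± 0.34 (SE) for H2-Oa and 0.62 ± 0.33 (SE) for H2-Ob, with adjusted p of 0.76 and 0.78. Counts of the H2-DO genes came to 0.54, 0.54 and 0.60 per count of the H2-DM genes at 30 °C and to 0.58 and 0.49 at 4 °C, which left no gap between the groups. H2-Oa shares 22.8% of its exon bases with BC051537 of the opposite strand, which reached at most 1.30 CPM.

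Ciita, the master switch of the system, lies on chromosome 16 (10480059 to 10528418). It stood at 76.6, 93.0 and 261 CPM at 30 °C and at 235 and 135 CPM at 4 °C. The highest library was a warm one, and 4 °C replicate 2, the highest library for Cd74, lay between the low and the high values. In edgeR the log2 fold change was 0.29 ± 0.50 (SE), at an adjusted p of 0.93. Its sign turned without 30 °C replicate 1 (−0.038) and without 4 °C replicate 1 (−0.13). Ciita can start from several promoters that differ between dendritic cells, B cells and cells under interferon-gamma, and counts per gene do not part them.

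**Figure D2:**
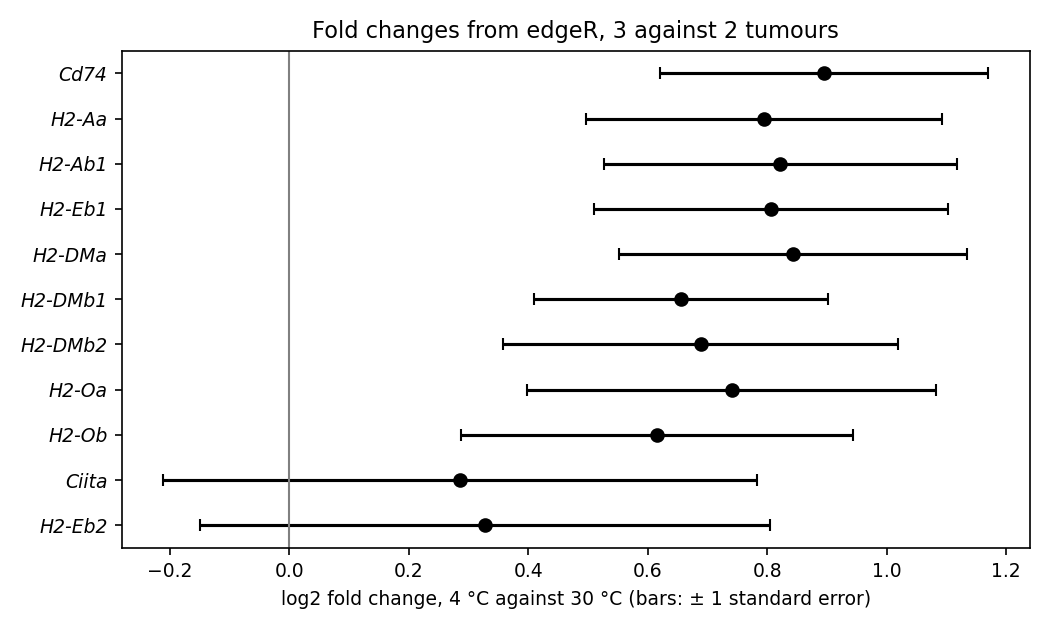
Log2 fold changes of the 10 members and of H2-Eb2 between 4 °C and 30 °C from edgeR (points), with ± 1 standard error (bars); the vertical line marks no change. Cd74 is the highest at 0.90, Ciita the lowest at 0.29, and the bars of Ciita and H2-Eb2 cross the line.

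In the fit over all genes, 0 of the 10 members had an adjusted p under 0.05 (edgeR), where 0% of the 16133 genes did. The DESeq2 Wald test also called 0 of the 10, against 0.741% of all genes (112 genes). That test rested on single libraries: it called 4 genes without 30 °C replicate 2, 33 without 30 °C replicate 1, 53 without 4 °C replicate 2 and 94 without 4 °C replicate 1, with 0 members in each case. Without 30 °C replicate 3, the warm library closest to the cold ones, it called 351 genes and 8 of the 10 members. At an unadjusted p under 0.05, edgeR gave 6 members (H2-Aa, H2-Ab1, H2-Eb1, Cd74, H2-DMa and H2-DMb1), all higher at 4 °C, where 6.76% of all genes passed that level, 2.58% higher and 4.17% lower. These genes vary together, so they are not 6 separate observations. All 10 had a log2 fold change above 0, with a median of 0.77, beside a median of 0.01 and a share of 50.7% above 0 over all genes tested. After TMM scaling, which adjusts library totals for their composition, the groups did not overlap in 9 members, all but Ciita, against 12.2% of all genes that were higher at 4 °C in this way and 11.0% that were lower. For H2-Ob the gap was only from 221 to 222 TMM-scaled CPM. In unscaled CPM this held for 7 members, against 11.0% of all genes higher and 5.41% lower. The count of 6 became 0 without 30 °C replicate 2, where 3.24% of all genes passed that level, but stayed 6 with the acinar genes removed from the fit (6.89%). It was 1 without 30 °C replicate 1 (5.76% of all genes) and 9 without 30 °C replicate 3 (9.36%). Without robust estimation of the dispersions it was 3 (6.55%). For edgeR fits with 1 cold tumour left, only log2 fold changes are given. Cd74 had 0.69 without 4 °C replicate 2 and 1.07 without 4 °C replicate 1, and H2-DMb1 had 0.35 and 0.90. With 3 tumours against 2 there are only 10 splits, and an exact two-sided rank test cannot go below p = 0.2. No permutation test was run on single genes.

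Levels of different genes were compared per kilobase of annotated exon, joined over all annotated transcripts of a gene. The order of genes thus rests on these lengths as well as on counts. On this scale Cd74 had the highest mean over the 5 libraries with 3006 CPM per kilobase, followed by H2-Eb1 with 777, H2-Ab1 with 677 and H2-Aa with 402. H2-DMb2 came next with 141 CPM per kilobase, then H2-Oa with 57.1, H2-DMa with 49.8, H2-DMb1 with 41.7, H2-Ob with 34.9 and Ciita with 16.8. This order held in all 5 libraries for 7 of the 9 steps, but each gene has the same divisor in every library, so this does not test the lengths. In CPM, H2-Aa and H2-Eb1 were close (919 and 896 in 30 °C replicate 1, 2298 and 2266 in 4 °C replicate 2). Their gap per kilobase thus came from the annotated lengths (3798 and 1944 bases). H2-DMa stood above H2-DMb1 in 4 of 5 libraries and H2-DMb1 above H2-Ob in 3 of 5, so these neighbours were not told apart. The invariant chain exceeded H2-Eb1 by 3.63 to 4.03 times per kilobase, a narrow range for libraries whose summed class II level differed 3.20-fold.

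Ratios inside a library do not depend on the scaling between libraries. H2-Aa stood between 0.83 and 0.91 counts per count of H2-Ab1, Cd74 between 2.77 and 3.12, and H2-DMa between 0.091 and 0.107. The highest library exceeded the lowest by at most 1.18 times in these ratios, whereas the levels of these 4 genes differed from 3.06-fold (H2-Ab1) to 3.44-fold (Cd74) between libraries. Ciita departed from this: per count of H2-Ab1 it stood at 0.075, 0.113 and 0.128 at 30 °C and at 0.103 and 0.053 at 4 °C, a 2.40-fold range with the lowest value in 4 °C replicate 2.

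**Figure D3:**
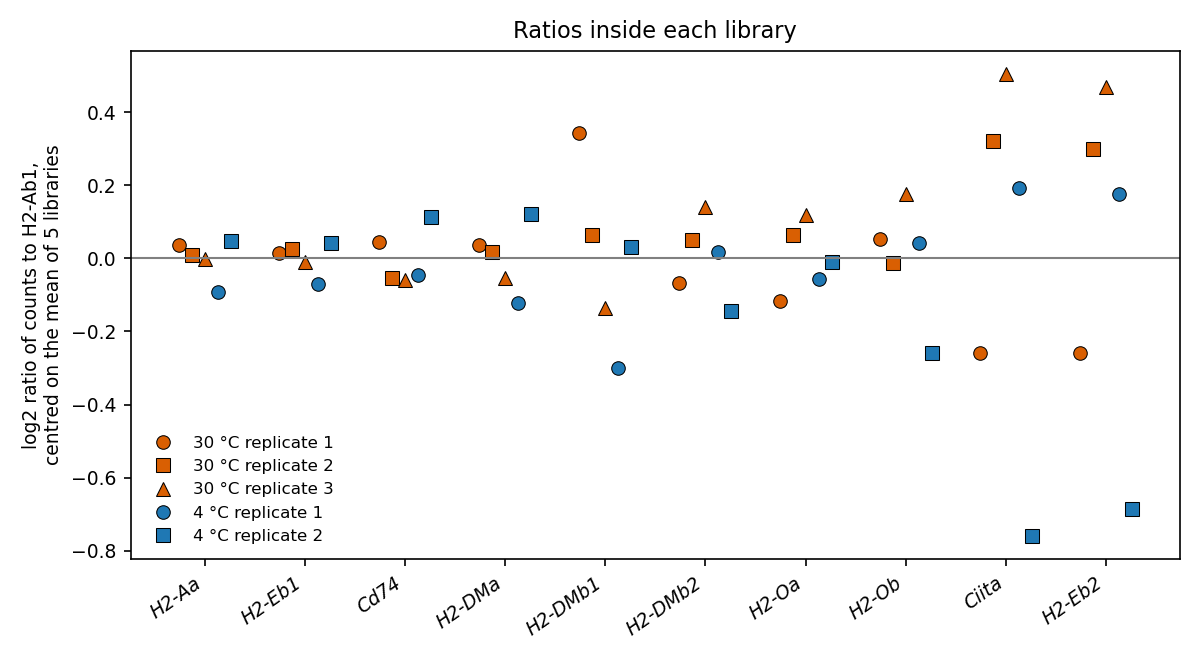
Log2 ratio of each gene's counts to those of H2-Ab1 in the same library, centred on the mean of the 5 libraries; orange symbols are tumours at 30 °C and blue symbols tumours at 4 °C. H2-Aa, H2-Eb1, Cd74 and H2-DMa stay near 0, whereas Ciita and H2-Eb2 spread widely, in the same order of libraries.

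H2-Eb2, the lesser known neighbour of H2-Eb1 (chromosome 17 from 34325665 to 34341412), had a profile close to that of Ciita. Its levels were 27.1, 32.4 and 89.8 CPM at 30 °C and 82.2 and 49.96 CPM at 4 °C, so the groups overlapped. In edgeR its log2 fold change was 0.33 ± 0.48 (SE), at an adjusted p of 0.92. Per count of H2-Eb1 it ranged from 0.022 to 0.051, over 2.31-fold. Per count of Ciita it stayed between 0.345 and 0.371, over 1.08-fold. Profiles were compared by the root-mean-square distance of their log2 CPM, each centred on its own mean over the 5 libraries. By this measure H2-Eb2 was the nearest to Ciita among 10121 genes, at 0.038, where the mean profile of the chain genes and Cd74 lay at 0.485. The next after it were Klhl14 (0.038), Chst3 (0.060), Pik3c2b (0.061) and Swap70 (0.081). These nearest genes of Ciita were looked for after its values had been seen.

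Transcript length moved with the same libraries. Genes of over 5 kb of exons had a median centred log2 CPM of −0.07, 0.03 and 0.14 at 30 °C and of 0.09 and −0.19 at 4 °C, in the order of the replicates. Genes under 2 kb had medians of 0.03, −0.07, −0.15, −0.07 and 0.28. Long genes were low in 30 °C replicate 1 and 4 °C replicate 2, where Ciita (9535 exon bases) was low against H2-Ab1 (2568 bases). Short genes were high in 4 °C replicate 2, where the chain genes and Cd74 were highest, but did not follow them in every library. In 30 °C replicate 1, where the chain genes and Cd74 had their lowest mean centred value (−0.72), short genes had 0.03. In 30 °C replicate 3 the values were 0.17 and −0.15. Of the chain genes, H2-Aa and H2-Ab1 have over 2 kb of exons. H2-Eb2 has 3392 exon bases and H2-Aa 3798. These lengths join the exons of all annotated transcripts of a gene, so the transcript that was present can be much shorter. The part of length in these results was not tested.

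Genes whose pattern was most like that of the chain genes and Cd74 were sought among 10121 genes with a mean of at least 10 CPM. The mean profile of H2-Aa, H2-Ab1, H2-Eb1 and Cd74, in centred log2 CPM, was −0.72, −0.50 and 0.17 at 30 °C and 0.37 and 0.68 at 4 °C. H2-DMa followed these 4 directly, at a distance of 0.049. The nearest genes outside the 10 were Cd7 (0.066), a surface protein of T and NK cells, Cd79a (0.067), a signalling chain of the B cell receptor, Ptprcap (0.090), which binds CD45, Ltb (0.092), which encodes lymphotoxin beta, and Gimap1 (0.092), a lymphocyte GTPase. The median distance over all 10121 genes was 0.57. Among the members H2-Oa lay at 0.096, H2-DMb2 at 0.126, H2-Ob at 0.169 and H2-DMb1 at 0.191, and Ciita at 0.485 had rank 2481. The measure rests on 5 libraries only.

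Markers of the cells that carry class II at rest differed between the libraries as well. B cell markers, all 10 of 10 above the floor in each library, summed to 1399, 1380 and 3700 CPM at 30 °C and to 4108 and 3428 CPM at 4 °C. Dendritic cell markers (12 of 12) summed to 280, 186 and 430 CPM at 30 °C and to 449 and 423 CPM at 4 °C. Macrophage and monocyte markers (10 of 10) summed to 4221, 2695 and 4130 CPM at 30 °C and to 4006 and 4726 CPM at 4 °C. The summed B cell and dendritic cell markers were low in the same pair of warm tumours as the class II genes. Single dendritic cell markers differed from their sum: Zbtb46 stood at 23.2, 20.9 and 35.6 CPM at 30 °C and at 25.3 and 23.5 CPM at 4 °C. Fscn1 stood at 96.9 CPM in 30 °C replicate 1 and at 96.7 CPM in 4 °C replicate 1. All dendritic cell markers but Zbtb46 had a log2 fold change above 0 in edgeR. The macrophage sum was lowest in 30 °C replicate 2. Lyz2, which encodes lysozyme, made up most of that sum (1599 to 2954 CPM), and other members differed from it: Ly6c2 stood at 271, 192 and 180 CPM at 30 °C and at 122 and 147 CPM at 4 °C, and Ccr2 was highest in 30 °C replicate 2 (65.2 CPM). Their part in the class II levels was not tested.
Per count of the B cell markers, class II counts came to 4.57, 3.66 and 3.36 at 30 °C and to 3.32 and 4.71 at 4 °C, so the groups overlapped within a 1.42-fold range. The H2-DO genes stood between 0.087 and 0.113 per B cell marker count. Per count of the dendritic cell markers, class II came to 22.9, 27.2 and 28.9 at 30 °C and to 30.4 and 38.2 at 4 °C. Per count of the macrophage markers it came to 1.51, 1.87 and 3.01 at 30 °C and to 3.41 and 3.42 at 4 °C. Both cold tumours lay above all 3 warm ones in the last 2 ratios.

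**Figure D4:**
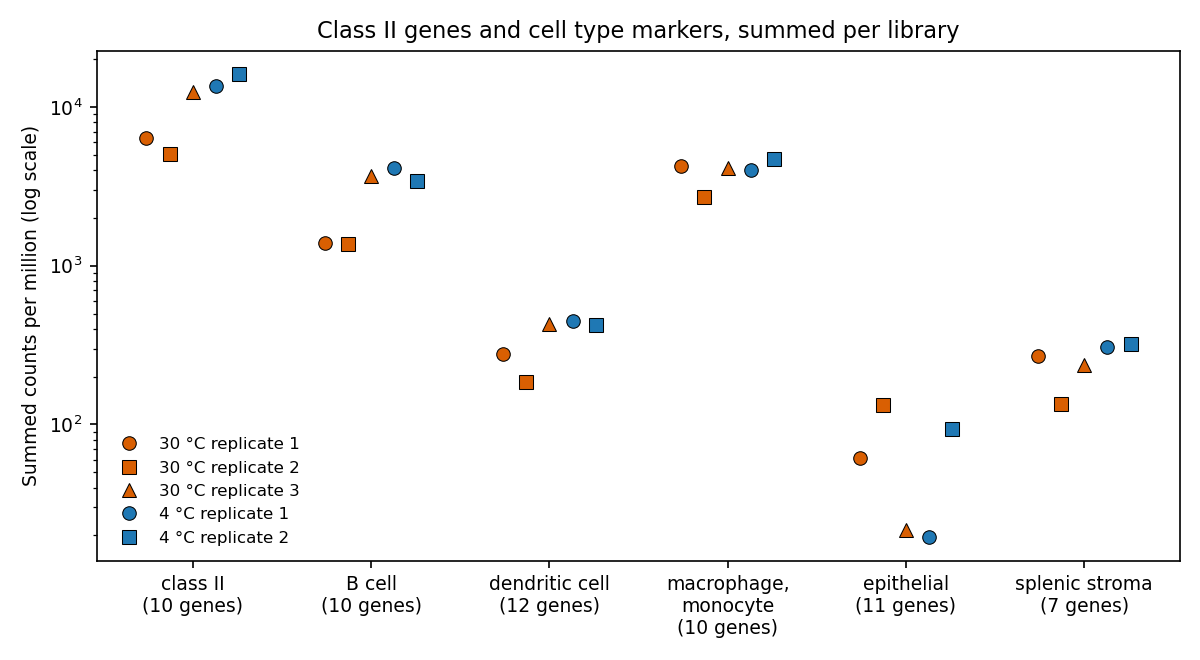
Summed counts per 1000000 (log axis) of the 10 class II genes and of 5 marker lists in each library; orange symbols are the 3 tumours at 30 °C and blue symbols the 2 at 4 °C. B cell markers (1380 to 4108 CPM) are low in the same pair of warm tumours as the class II genes, and macrophage markers (2695 to 4726 CPM) vary less.

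The factors that bind the class II promoters were read from 7 genes, of which 0 were called by edgeR or DESeq2 and 0 passed an unadjusted p of 0.05 in edgeR. Their log2 fold changes lay between −0.01 and 0.37. The 2 with the smallest p were Rfxank, at 0.37 ± 0.22 (SE) on the log2 scale with an adjusted p of 0.80 in edgeR, and Rfxap with 0.20, which both encode subunits of the RFX complex. Rfx5, the third subunit, had 0.06. In TMM-scaled CPM, Rfxank stood at 15.0, 14.0 and 17.7 at 30 °C and at 17.8 and 22.5 at 4 °C, with the lower cold tumour level with the highest warm one.

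The interferon-gamma arm that induces Ciita was covered by 8 genes, with 0 called by edgeR or DESeq2, 0 at an unadjusted p under 0.05 in edgeR and log2 fold changes between −0.24 and 0.28. Ifng itself stood at 0.90, 1.07 and 0.96 TMM-scaled CPM at 30 °C and at 0.99 and 1.26 at 4 °C, so its groups overlapped. The genes with the smallest p were Usf1 with 0.24 and Irf1 with 0.28 on the log2 scale, both of them factors of the Ciita promoter that interferon-gamma uses. Of the 6 regulators of B cells and plasma cells, 0 were called by either tool and 0 had an unadjusted p under 0.05, and all 6 were above 0 (0.06 to 0.41). Irf8 had 0.41 and Irf4 0.34. Pax5, the factor of B cell identity, had 0.23 ± 0.57 (SE) with an adjusted p of 0.95 in edgeR, and Ciita stood between 0.61 and 0.71 counts per count of Pax5 in the 5 libraries.

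Endosomal proteases and the thiol reductase cut and unfold the antigens and the invariant chain. Of 12 genes, 7 were above and 5 below 0, from −0.35 to 0.46, with 0 called by edgeR or DESeq2 and 1 at an unadjusted p under 0.05. That gene was Ctsh (cathepsin H), at 167, 162 and 199 TMM-scaled CPM at 30 °C and 228 and 254 at 4 °C, which in edgeR gave 0.46 ± 0.17 (SE) on the log2 scale at an adjusted p of 0.71. Ctss, the protease that trims the invariant chain in B cells and dendritic cells, had 0.27 ± 0.21 (SE), and Napsa had 0.40. The median of 0.10 was below that of the members.

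Class II traffic and turnover was read from 10 of 12 listed genes. March1 and March8, which encode ubiquitin ligases that remove class II from the surface, were not matched, because spreadsheet dates stand in place of such symbols in the table. Among the 10, 0 were called by edgeR or DESeq2 and 1 had an unadjusted p under 0.05. It was Cd37, a tetraspanin of B cells, with 194, 206 and 324 TMM-scaled CPM at 30 °C and 370 and 410 at 4 °C, and 0.69 ± 0.26 (SE) on the log2 scale at an adjusted p of 0.71 in edgeR. Cd81, another tetraspanin, had 0.34. Of the 4 costimulatory genes, 0 were called by edgeR or DESeq2 and 0 had an unadjusted p under 0.05 in edgeR. Cd40, the receptor through which T cells help B cells, had 0.77 ± 0.32 (SE) with an adjusted p of 0.74 in edgeR and Icosl 0.56, whereas Cd80 and Cd86 had 0.14 and 0.11.

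On the T cell side of recognition, of 8 genes, edgeR called 0. At an unadjusted p under 0.05 it gave 6 (Cd3d, Cd3e, Cd3g, Trac, Trbc1 and Trbc2), all higher at 4 °C, as were 2.58% of all genes at that level. The 6 varied together, so they are not 6 separate observations. DESeq2 called 5, all higher at 4 °C, where it called 0.139% of all genes as higher. These calls rested on single libraries: DESeq2 called 0 of the 8 without 30 °C replicate 1, without 30 °C replicate 2 or without 4 °C replicate 2, 3 without 4 °C replicate 1 and 6 without 30 °C replicate 3. Trbc2, a constant gene of the T cell receptor beta chain, stood at 50.6, 52.2 and 56.0 TMM-scaled CPM at 30 °C and at 98.1 and 128 at 4 °C, with a wide gap between the groups. On the log2 scale it had 1.10 ± 0.18 (SE), and the adjusted p was 0.69 in edgeR and 0.00113 in DESeq2. Trbc1 had 1.16 ± 0.21 (SE), and its adjusted p was 0.69 in edgeR and 0.00562 in DESeq2. Both are near-identical copies, so the split of reads between them is uncertain. Cd4, the coreceptor that binds class II, had 0.64 ± 0.33 (SE) with an adjusted p of 0.78 in edgeR, at 40.3, 53.8 and 84.1 TMM-scaled CPM at 30 °C and 107 and 78.5 at 4 °C, so its groups overlapped. Lag3, an inhibitory receptor for class II, had 0.15.
CD74 also serves as a surface receptor. Of its 4 partner genes, 0 were called by either tool and 1 had an unadjusted p under 0.05. That was Cxcr2, a chemokine receptor of neutrophils, at 93.6, 56.3 and 39.1 TMM-scaled CPM at 30 °C and at 27.8 and 33.5 at 4 °C, which in edgeR gave −1.04 ± 0.38 (SE) on the log2 scale at an adjusted p of 0.71, and −0.64 without 30 °C replicate 1. Mif, the ligand of CD74, had 0.35 ± 0.28 (SE).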

How the data were processed

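RNA of 5 tumours was sequenced from TruSeq libraries of total RNA. The deposited values are whole read counts per gene. For the counting, the methods of the authors name featureCounts over Gencode vM19 genes, whereas the submitters' processing notes name RSEM, beside fastp, HISAT and GRCm38. Which of these tools made the table is not settled by the sources used here, and it bears on reads shared by similar genes such as H2-DMb1 and H2-DMb2. The counts were not normalized. No column of values was left unused. Entries without a name (333 of 54446, at most 0.0170% of the counts of a library) were left out, and 27 entries bearing a date stayed in the fit. Of several entries with 1 symbol, the most abundant carried it.

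Genes were filtered with filterByExpr and scaled by TMM in edgeR 4.0.16 (R 4.3.3), and the quasi-likelihood test compared the groups, using robust dispersions without covariates. Calls needed an adjusted p (Benjamini-Hochberg, 16133 genes) under 0.05. The standard error is the log2 fold change divided by the root of F. Centred profiles used log2 CPM with a prior count of 2. CPM are counts divided by the library total and scaled to 1000000. The 95% Wilson half-width of a member's CPM was at most 8.06% and covers counting error only, since reads are not independent molecules. Exon lengths join the exons of all annotated transcripts of a gene. These lengths and the coordinates come from GENCODE M21 on GRCm38, promoters from RefSeq on GRCm38.p6. The methods were tested on simulated counts.

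The members and gene lists were chosen with earlier results of these data known. Named are all members and, in each list, the genes past the threshold or the 2 with the smallest p, and the 5 nearest profiles. Other genes are named for their role or after their values were seen. Alternatives were the DESeq2 1.42.0 Wald test (the test of the study), RLE and upper-quartile scaling, other filters, the replicate block, dispersions without the robust option, every tumour omitted in turn and removal of acinar genes. Leaving out both libraries richest in acinar transcripts, and DESeq2 with every tumour omitted in turn, were added after seeing the data.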

Additional observations from a re-analysis of the deposited data

How the results depend on the processing

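Across 14 alternatives for each member, 138 of 140 log2 fold changes kept their direction and their side of the threshold, and the exceptions were those of Ciita (−0.13 to 0.82 with each tumour left out). The other 9 members lay between 0.26 (H2-DMb1 without both libraries richest in acinar transcripts) and 1.19 (Cd74 without 30 °C replicate 3). None of the 10 was called under these 14 alternatives, with adjusted p from 0.20 to 1.00. DESeq2 combined with leaving out 30 °C replicate 3, chosen after seeing the data, called 8 of them. With each tumour left out, H2-Eb2 ranged from −0.033 to 0.85, Irf4 from −0.038 to 0.63 and Mif from −0.052 to 0.65. Without both libraries richest in acinar transcripts Mif had −0.13. The count of called genes, 0 in edgeR, became 112 with DESeq2. With the replicate block, which takes 30 °C replicate 3 out of the comparison, it became 44. The pathway genes called became 5 with DESeq2 (Trbc1 with 1.15 and Trbc2 with 1.08 on the log2 scale among them). With each tumour left out in turn, DESeq2 called between 4 (without 30 °C replicate 2) and 351 genes (without 30 °C replicate 3), the others being 33, 94 and 53, and of the pathway genes between 0 and 11, with 3 without 4 °C replicate 1. The cause was not tested. In edgeR, leaving out 1 tumour moved further values by over 1.5 times, all below the threshold: without 4 °C replicate 2, H2-DMb1 had 0.35, Rfxank 0.18, Rfxap 0.083, Cd81 0.14 and Napsa 0.26, and without 30 °C replicate 3, H2-DMb2 had 1.08, H2-Oa 1.13, H2-Ob 1.01, Irf1 0.43, Irf8 0.67 and Icosl 0.88. Without 30 °C replicate 2, Irf1 had 0.15, Cd81 0.22 and Napsa 0.25, and without 30 °C replicate 1, Irf8 had 0.23.

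The log2 difference of the summed members between 4 °C and 30 °C was 1.01, and 0.88 with TMM-scaled totals, 0.83 without acinar genes and 0.74 to 1.39 with each tumour left out. Differences in log2 ratio rested on single tumours. With each left out they lay between −0.95 and 0.0038 for Ciita to H2-Ab1, between −0.18 and 0.067 for H2-DO to H2-DM, between −0.13 and 0.37 for H2-DMb2 to H2-DMb1 and between −0.20 and 0.30 for the members to the B cell markers.

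The replicate numbers are shared by both groups, but nothing says that they pair tumours. Deviations of same-numbered tumours from their group means correlated at −0.255 for number 1 and 0.259 for number 2 over the genes tested. The deviations of 2 cold tumours from their mean are exact opposites, so these are not separate checks of pairing. The highest correlation was 0.616, between 30 °C replicate 3 and 4 °C replicate 1, which differ in number. Number 3 occurs only at 30 °C, so the replicate block takes 30 °C replicate 3 out of the comparison. Its log2 fold changes were close to those without that tumour (H2-Ab1 1.14 in both, Ciita 0.83 and 0.82). With the block, 9 members had an unadjusted p under 0.05 in edgeR in place of 6, the same count as without that tumour, and 0 were called. Over all genes the block called 44, where edgeR without that tumour called 0. The fit cannot tell pairing from the loss of that tumour. Fits without a tumour at 4 °C assume that the remaining one varies like the tumours at 30 °C.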
